A study of Oryza sativa Japonica Group with 20 samples.

Results

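The genes described here are the rice loci whose mRNA stood high in roots under every arsenite treatment tested and low in untreated roots. They were chosen by their root values alone: a locus was taken where each of the 4 treated root libraries reached at least 20 RPKM (read number adjusted for gene length and library size) and at least 4 times the untreated root value plus 1. The rule found 124 of 57624 loci, or 0.215%. The plants were 14-day-old seedlings of Nipponbare, a japonica cultivar of Oryza sativa, grown in diluted Hoagland solution, a standard mineral medium. Sodium arsenite was given at the start of the light period at 20 or 80 µM, and roots and shoots were taken after 6 and 24 h. The untreated roots and shoots were taken at 0 h, and all groups share cultivar, age and medium. Each combination of tissue, dose and time is 1 mRNA library, so there are 10 libraries and no replicates, and the labels do not say how many plants went into each.

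Arsenite is the reduced, trivalent form of arsenic that prevails in flooded paddy soil. It enters rice roots largely through silicic acid channels and binds thiol groups of proteins and of glutathione. Glutathione S-transferases join glutathione to reactive compounds. Oxophytodienoate reductases are flavin enzymes that reduce double bonds in oxidised lipids, and members of one of their subgroups make the precursor of the hormone jasmonate.

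The 10 libraries had RPKM sums of 313836 to 369084, and 8016 to 12515 loci reached 5 RPKM in a library, fewest in roots at 80 µM after 6 h and most in untreated roots. Read counts are not given. Over loci between 0.8 and 4 RPKM in both libraries, the most common ratio to untreated roots was 0.779 to 1.38. It is a rough guide to the relative worth of 1 read, and changes in expression can move it. Untreated plants were harvested only at 0 h. Treatment and hour of day therefore cannot be told apart at 6 h, and treatment and one more day of age cannot be told apart at 24 h. A harvest-hour readout, the log2 level of the dawn gene LHY minus the mean of 4 genes that peak later in the day, was -1.31 and -1.74 in roots at 20 and 80 µM after 6 h and 1.44 and -1.33 at 20 and 80 µM after 24 h, against 1.78 in untreated roots. In the shoot libraries it was 2.94 and -0.08 in those labelled 20 and 80 µM at 6 h and -0.12 and 5.82 in those labelled 20 and 80 µM at 24 h, against 3.06 in untreated shoots. The tables of the 2 libraries labelled 20 µM shoots carry each other's sample codes in their headers, so results that rest on their time labels are given as "labelled". In the untreated plants the labelled tissues were told apart by summed markers. Summed over 5 leaf photosynthesis genes, untreated roots had 257.5 RPKM and untreated shoots 2112.5 RPKM. Summed over 7 listed root markers they had 982.1 and 107.8 RPKM. Of the root sum, NAS1 and NAS2 held 297 and 344 RPKM. NRAMP5, also listed, did not differ, with 64.5 RPKM in untreated roots and 64.9 RPKM in untreated shoots.

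In treated roots the 124 genes formed a visible part of the mRNA pool. They made up 5.45% and 9.15% of the RPKM sum at 20 and 80 µM after 6 h and 3.98% and 7.34% at 20 and 80 µM after 24 h, against 0.442% in untreated roots. Their median level was 114.5 and 200.55 RPKM at 20 and 80 µM after 6 h and 76.5 and 120.45 RPKM at 20 and 80 µM after 24 h, against 5.95 RPKM in untreated roots. These levels chose the genes and are a description. The median log2(RPKM + 1) change against untreated roots was 3.79 and 4.43 at 20 and 80 µM after 6 h and 3.08 and 3.98 at 20 and 80 µM after 24 h. Over the 15414 genes with at least 5 RPKM in a root library the same medians were -0.19, -0.86, -0.17 and -0.43. Of the members, 37 reached 100 RPKM in all 4 treated root libraries and 22 reached 500 RPKM in at least 1. In untreated roots 6 were listed at 0, 57 were under 5 RPKM, and 21 stood at 20 RPKM or more.

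**Figure D1:**
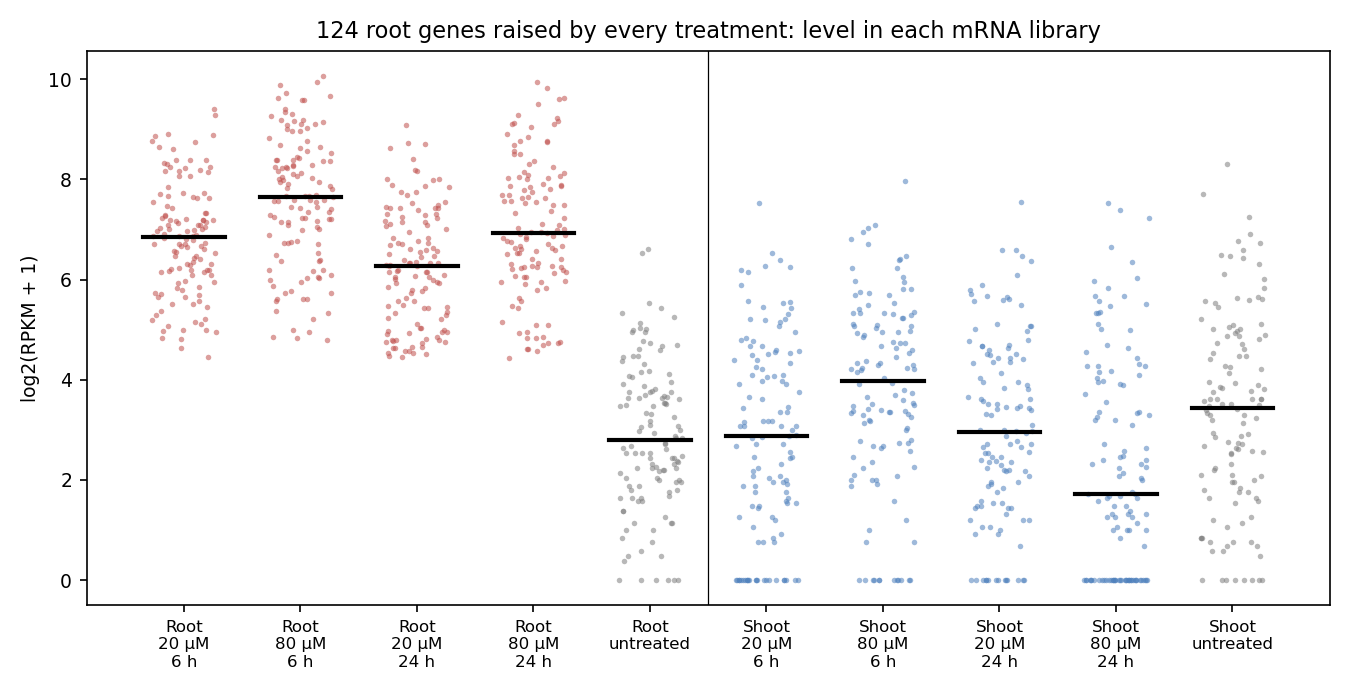
RPKM of the 124 genes on a log2(RPKM + 1) axis in each of the 10 mRNA libraries, with 1 point per gene and the median marked, treated libraries left of the untreated one within each tissue. The medians of the treated roots lie between 76.5 and 200.55 RPKM, against 5.95 RPKM in untreated roots, while all 5 shoot medians lie between 2.3 and 14.85 RPKM.

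The photosynthesis and root markers moved in these roots as well. The 5 photosynthesis genes summed to 27.2 and 12.7 RPKM in roots at 20 and 80 µM after 6 h and to 88.7 and 45.3 RPKM at 20 and 80 µM after 24 h, against 257.5 RPKM in untreated roots, and none of the 5 was at 0. The 7 root markers summed to 230.6 and 8.2 RPKM at 20 and 80 µM after 6 h and to 487.9 and 26.5 RPKM at 20 and 80 µM after 24 h, against 982.1 RPKM in untreated roots. In the shoots labelled 20 and 80 µM at 6 h the same genes summed to 479.2 and 64.4 RPKM. In those labelled 20 and 80 µM at 24 h the sums were 68.1 and 276.1 RPKM, so the root marker sum did not separate the treated tissues. The photosynthesis sum did separate them. It was 3301.1 and 2279.8 RPKM in the shoots labelled 20 and 80 µM at 6 h. In those labelled 20 and 80 µM at 24 h it was 2476.1 and 4547 RPKM. The part of both marker sets in the members' levels was not tested. In whole roots, more cells that express a gene and more of its RNA per cell cannot be told apart.

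The highest mean root change belonged to LOC_Os08g02030, which had 154.9 and 515.2 RPKM at 20 and 80 µM after 6 h and 53.6 and 220.7 RPKM at 20 and 80 µM after 24 h and was listed at 0 in untreated roots. Its mean log2(RPKM + 1) change was 7.46 ± 1.34 (SD over the 4 treated libraries, which are different treatments and not replicates). LOC_Os01g37630, also listed at 0 in untreated roots, had 268.2 and 134.4 RPKM at 20 and 80 µM after 6 h and 65.6 and 148.9 RPKM at 20 and 80 µM after 24 h. Neither gene overlapped its untreated value in any treated library, which the rule ensures, and they differed in which library stood highest.

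LOC_Os09g20220 was among the highest in level, with 433.9 and 945.8 RPKM at 20 and 80 µM after 6 h and 415.2 and 903.9 RPKM at 20 and 80 µM after 24 h, against 4.8 RPKM in untreated roots. The doses stood equally far apart at both times, with a log2 difference of 1.12 between 80 and 20 µM after 6 h and again 1.12 after 24 h. LOC_Os04g27060 held the most even level of the 8 genes with the largest changes, at 134.6 and 106.6 RPKM at 20 and 80 µM after 6 h and 127.9 and 189.5 RPKM at 20 and 80 µM after 24 h, against 0.4 RPKM in untreated roots. Its mean change was 6.62 ± 0.34.

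At the other end, LOC_Os01g43710, LOC_Os02g13380 and LOC_Os07g09420 had the smallest mean changes, 2.22 ± 0.14, 2.38 ± 0.17 and 2.54 ± 0.41 on the log2 scale. LOC_Os07g09420 was already well expressed, with 428.7 and 772.5 RPKM at 20 and 80 µM after 6 h and 425.2 and 597.9 RPKM at 20 and 80 µM after 24 h, against 92.1 RPKM in untreated roots. The thresholds fall within a continuous range. The members nearest above 20 RPKM were LOC_Os06g48240, LOC_Os07g48900 and LOC_Os05g04210, whose lowest treated roots stood at 20.5, 20.9 and 21.0 RPKM. The genes nearest below were LOC_Os05g08910, LOC_Os01g23580 and LOC_Os11g06150 at 19.9, 19.6 and 19.6 RPKM. For the other threshold, the lowest treated root over 4 times the untreated value plus 1 was 1.01 in LOC_Os09g38130, 1.02 in LOC_Os01g43710 and 1.03 in LOC_Os03g52390 on the inside, and 0.983 in LOC_Os03g57640, 0.981 in LOC_Os01g07300 and 0.972 in LOC_Os02g53410 on the outside.

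**Figure D2:**
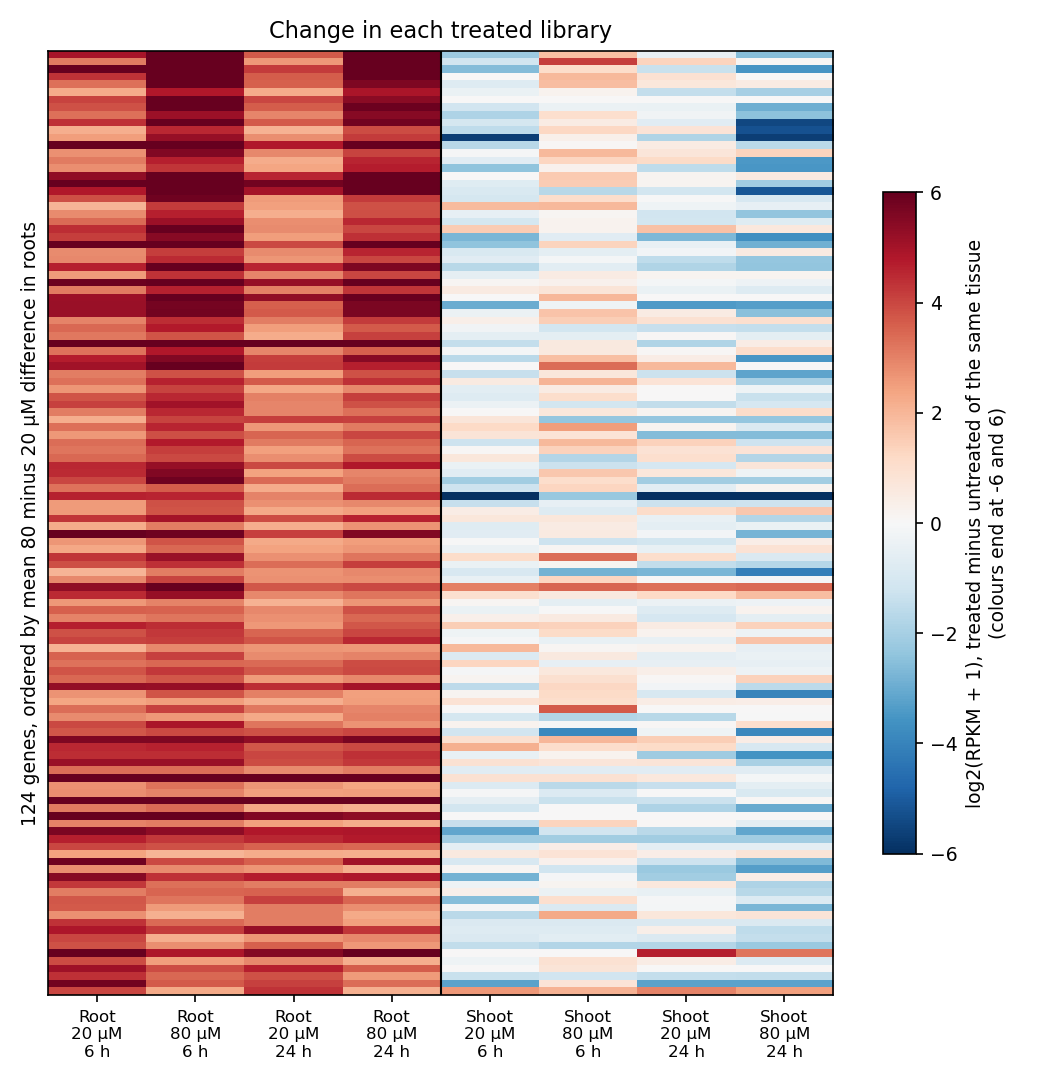
Heat map of the log2(RPKM + 1) change against the untreated library of the same tissue, with 1 row per member, ordered by the mean difference between 80 and 20 µM in roots, and 1 column per treated library (4 root, then 4 shoot as labelled), in colours that end at -6 and 6. The root columns are red throughout, as the rule requires, while the shoot columns hold both signs, with a median of 0.56 in the shoots labelled 80 µM at 6 h and below 0 in the other 3.

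Of the 11 gene lists looked at, 1 was a row of oxophytodienoate reductase loci on chromosome 6, with 4 members. The loci were put in this family from published knowledge, and only the symbol OPR1 could be looked up in the reference. OPR1 (LOC_Os06g11290) had 153.6 and 397.5 RPKM in roots at 20 and 80 µM after 6 h and 96.3 and 260.9 RPKM at 20 and 80 µM after 24 h, against 1.6 RPKM in untreated roots. LOC_Os06g11200 had 136.2 and 679.5 RPKM at 20 and 80 µM after 6 h and 31.9 and 722.0 RPKM at 20 and 80 µM after 24 h, against 0.8 RPKM in untreated roots. Both were near absent before treatment, and the 80 µM libraries stood above the 20 µM libraries at each time.

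Their neighbours LOC_Os06g11210 and LOC_Os06g11240 started higher. LOC_Os06g11210 had 336.1 and 562.2 RPKM at 20 and 80 µM after 6 h and 233.1 and 574.2 RPKM at 20 and 80 µM after 24 h, against 39.5 RPKM in untreated roots. LOC_Os06g11240 had 303.6 and 432.7 RPKM at 20 and 80 µM after 6 h and 214.0 and 363.7 RPKM at 20 and 80 µM after 24 h, against 19.9 RPKM in untreated roots. The 4 members are of 6 listed loci of the row. LOC_Os06g11260 was no member, with 9.2 and 100.9 RPKM at 20 and 80 µM after 6 h and 0 and 158.1 RPKM at 20 and 80 µM after 24 h, and it was listed at 0 in untreated roots. It was thus high only at 80 µM. The sixth locus, LOC_Os06g11280, stayed at or under 1.7 RPKM in every root library. Adjacent copies can share reads, and the sources used here do not say how such reads were assigned, so the split between them is uncertain.

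Of 20 listed genes of jasmonate synthesis and signalling none was a member, beside 0.215% of all loci, which is not a result for so short a list. Of the 19 that reached 5 RPKM in a root library, 3 stood at least 2-fold higher in all 4 treated roots and 0 lower, beside 4.66% and 6.97% of all 15414 genes. The 3 were AOS2, an allene oxide synthase of jasmonate synthesis, and JAZ11 and JAZ12, repressors of jasmonate signalling. AOS2 (LOC_Os03g12500) had 180.5 and 221.8 RPKM at 20 and 80 µM after 6 h and 100.1 and 87.8 RPKM at 20 and 80 µM after 24 h, against 38.4 RPKM in untreated roots. OPR7 (LOC_Os08g35740), the rice reductase known for jasmonate synthesis, had 49.6 and 31.4 RPKM at 20 and 80 µM after 6 h and 46.2 and 25.9 RPKM at 20 and 80 µM after 24 h, against 37.3 RPKM in untreated roots. Its treated values lay on both sides of the untreated one. Those of OPR1 all lay above, as the rule requires of a member, so the contrast is a description.

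In the glutathione S-transferase cluster of chromosome 10, 5 of 23 listed loci were members, beside 0.215% of all loci. LOC_Os10g38740 had the highest levels among them, with 481.9 and 808.3 RPKM in roots at 20 and 80 µM after 6 h and 284.9 and 625.6 RPKM at 20 and 80 µM after 24 h, against 34.0 RPKM in untreated roots. LOC_Os10g38340 had 322.2 and 578.7 RPKM at 20 and 80 µM after 6 h and 214.1 and 529.6 RPKM at 20 and 80 µM after 24 h, against 11.2 RPKM in untreated roots. LOC_Os10g38160 had 99.8 and 247.5 RPKM at 20 and 80 µM after 6 h and 26.7 and 182.7 RPKM at 20 and 80 µM after 24 h and was listed at 0 in untreated roots. In all 3 the order of the libraries was alike, with 80 µM after 6 h on top and 20 µM after 24 h at the bottom.

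LOC_Os10g38489 had 175.7 and 232.8 RPKM at 20 and 80 µM after 6 h and 140.8 and 199.4 RPKM at 20 and 80 µM after 24 h, against 11.5 RPKM in untreated roots. LOC_Os10g38470 had 30.1 and 108.2 RPKM at 20 and 80 µM after 6 h and 23.0 and 135.7 RPKM at 20 and 80 µM after 24 h, against 2.1 RPKM in untreated roots. The cluster did not move as a whole: of its 19 loci with at least 5 RPKM in a root library, 11 stood at least 2-fold higher in all 4 treated roots, the 5 members included, beside 4.66% of the 15414 genes. Of the others, 1 stood lower in all 4, beside 6.97%, and 7 did neither. As in the reductase row, reads shared between similar copies were not examined, so the split between these loci is uncertain. The lower one was LOC_Os10g38580, with 8.7 and 1.5 RPKM at 20 and 80 µM after 6 h and 6.7 and 7.1 RPKM at 20 and 80 µM after 24 h, against 29.6 RPKM in untreated roots.

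WRKY62 (LOC_Os09g25070), a transcription factor known in rice for holding back defence against bacterial blight, was the only member among 13 listed WRKY genes. It had 115.8 and 202.6 RPKM in roots at 20 and 80 µM after 6 h and 171.6 and 163.4 RPKM at 20 and 80 µM after 24 h, against 26.4 RPKM in untreated roots. Its change varied little over the 4 treated libraries, with a mean of 2.56 ± 0.34. The list of abscisic acid turnover and late embryogenesis genes, of 11 loci, held 1 member, LOC_Os12g42280, with 50.8 and 225.4 RPKM at 20 and 80 µM after 6 h and 29.7 and 97.5 RPKM at 20 and 80 µM after 24 h, against 0.3 RPKM in untreated roots. The list of alternative oxidase and fermentation genes, of 7 loci, also held 1, LOC_Os04g51160, with 118.3 and 335.2 RPKM at 20 and 80 µM after 6 h and 90.1 and 456.9 RPKM at 20 and 80 µM after 24 h, against 16.4 RPKM in untreated roots. The symbols of these last genes could not be looked up, and they are given by identifier. The rule took 0.215% of all loci, and single members of short lists are a description. Of the measured loci, 3 of 12 WRKY, 4 of 10 abscisic acid and 2 of 5 oxidase and fermentation genes stood at least 2-fold higher in all 4 treated roots. These counts include the members and stand beside 4.66% of the 15414 genes.

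The rule took 0.215% of all loci, so short lists without a member are not a result. Besides the jasmonate list, they covered sulfate assimilation and thiol synthesis, stress NAC and DREB factors, heat shock proteins, diterpenoid synthesis and PR defence proteins. Of their measured loci, jasmonate aside, 2 of 8, 2 of 8, 0 of 12, 3 of 6 and 0 of 5 in that order stood at least 2-fold higher in all 4 treated roots, beside 4.66% of the 15414 genes. Each listed heat shock gene stood above its untreated root value at 80 µM at both times, while at 20 µM some stood below it. The median of their mean log2 changes over the treated roots was 2.58, beside -0.42 over the 15414 genes. Sulfate reduction was close to the rule through APR1 (LOC_Os07g32570), an adenylylsulfate reductase, with 219.6 and 485.2 RPKM at 20 and 80 µM after 6 h and 75.8 and 359.3 RPKM at 20 and 80 µM after 24 h, against 30.7 RPKM in untreated roots. It fell short in the 20 µM library after 24 h alone. The remaining 112 members belong to no list and are known here only by identifier.

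Some members were neighbours on their chromosome. With loci put in identifier order, which follows the chromosome, 25 members had another member within 10 rows, or 20.2%, beside 5.24% of the 15414 genes. This share was not tested, and reads shared between similar neighbours were not examined. The 25 members formed 10 runs, 6 of 2 members and 4 of 3 or more. The members lay on all 12 chromosomes, with 22 on chromosome 1 and 5 on chromosome 12. Besides the reductases and the 3 transferases LOC_Os10g38340, LOC_Os10g38470 and LOC_Os10g38489, the runs of 3 were LOC_Os01g43710, LOC_Os01g43774 and LOC_Os01g43890 on chromosome 1 and LOC_Os08g05960, LOC_Os08g05970 and LOC_Os08g05980 on chromosome 8.

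The chromosome 8 run had its highest levels at the lower dose. LOC_Os08g05970 had 464.5 and 105.6 RPKM in roots at 20 and 80 µM after 6 h and 140.3 and 84.5 RPKM at 20 and 80 µM after 24 h, against 7.3 RPKM in untreated roots. LOC_Os08g05980 had 160.3 and 27.8 RPKM at 20 and 80 µM after 6 h and 44.1 and 61.2 RPKM at 20 and 80 µM after 24 h and was listed at 0 in untreated roots. LOC_Os08g05960 had 141.4 and 64.6 RPKM at 20 and 80 µM after 6 h and 94.6 and 75.6 RPKM at 20 and 80 µM after 24 h, against 10.2 RPKM in untreated roots. In all 3 the highest library was 20 µM after 6 h. These are direct neighbours with no other locus between them, and reads shared between similar copies were not examined.

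The chromosome 1 run was uneven. LOC_Os01g43774 had 84.3 and 82.3 RPKM at 20 and 80 µM after 6 h and 46.5 and 69.2 RPKM at 20 and 80 µM after 24 h, against 1.2 RPKM in untreated roots. LOC_Os01g43890 had 110.6 and 143.4 RPKM at 20 and 80 µM after 6 h and 52.5 and 117.9 RPKM at 20 and 80 µM after 24 h, against 10.5 RPKM in untreated roots. The third gene, LOC_Os01g43710, had 116.8 and 91.3 RPKM at 20 and 80 µM after 6 h and 102.8 and 101.2 RPKM at 20 and 80 µM after 24 h, against 21.3 RPKM in untreated roots. Between them lie 14 other loci, of which 4 reached 5 RPKM in a root library.

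**Figure D3:**
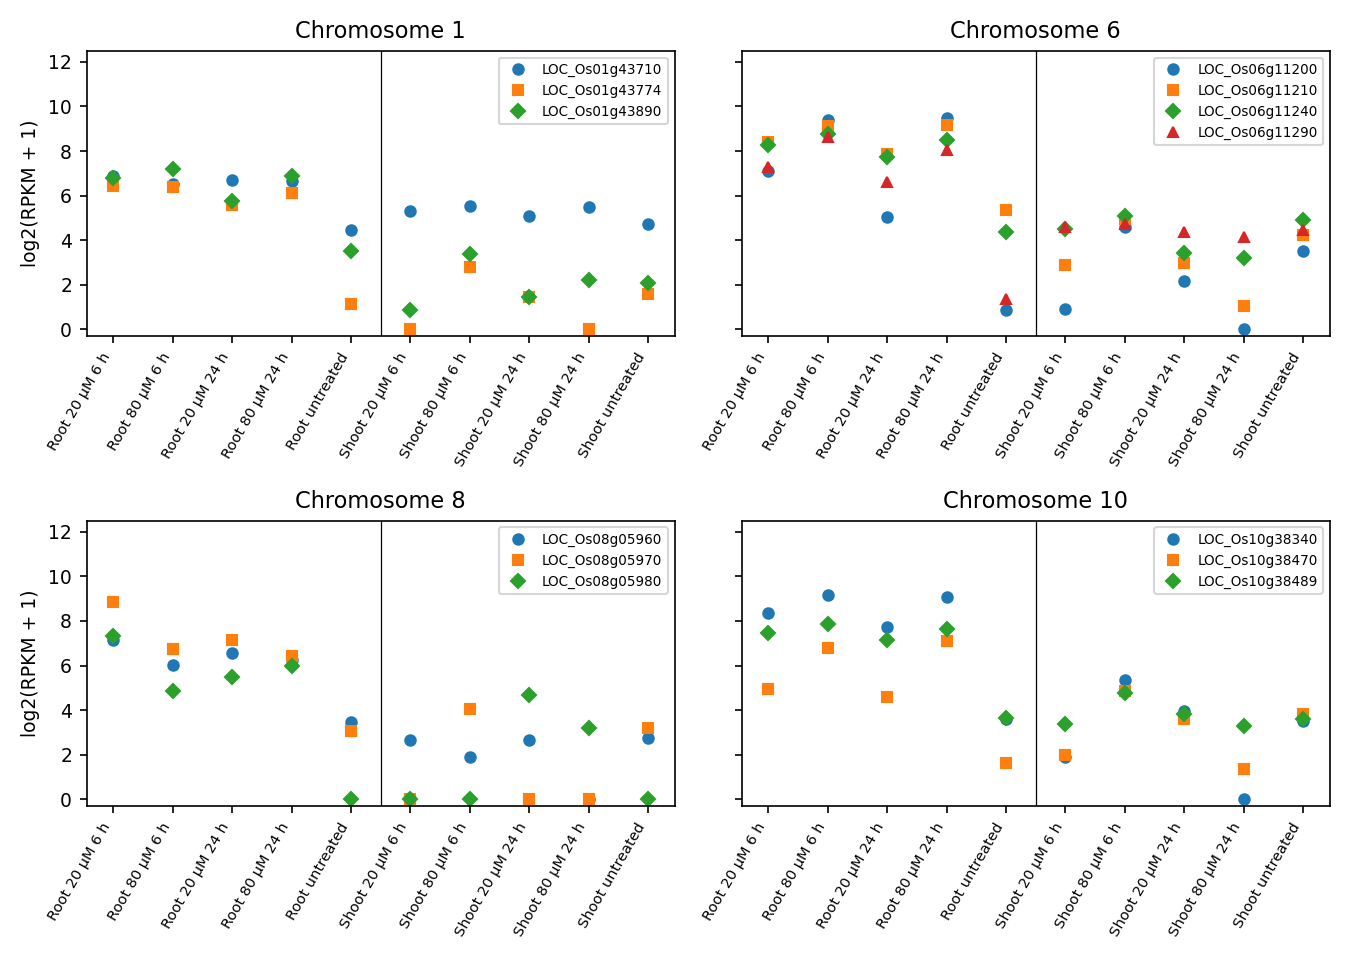
Log2(RPKM + 1) level of the members in the 4 runs of 3 or more neighbours, 1 panel per chromosome and 1 symbol per gene, in the 4 treated and the untreated root libraries left of the line and the shoot libraries right of it. In the chromosome 6 reductase row LOC_Os06g11200 reaches 722.0 RPKM in roots at 80 µM after 24 h, while all 3 genes of the chromosome 8 run are highest in roots at 20 µM after 6 h.

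Within treated roots, most members were higher at the larger dose. Of the 124, 82 had more RPKM at 80 than at 20 µM at both times and 14 had less at both. No share over other genes was computed for these counts. A difference of at least 2-fold in the same direction at both times was found in 34 members (27.4%) for 80 µM above 20 µM, beside 8.32% of the 1959 genes that reached 20 RPKM in all 4 treated roots and 7.66% of the 13863 genes with 5 RPKM in at least 1. Lower at 80 µM were 2 members, LOC_Os03g20330 and LOC_Os04g56560, beside 3.32% and 16.8%. The median log2 difference between 80 and 20 µM was 0.77 after 6 h and 0.57 after 24 h over the members, and 0.23 and 0.06 over the 1959 genes. Over the 13863 genes it was -0.57 after 6 h and -0.25 after 24 h. Scaling by median ratios shifts the members and all other genes together. With libraries so scaled the members' medians were 1.49 after 6 h and 0.86 after 24 h. Beside them, the 13752 genes with 5 RPKM in at least 1 scaled library had 0.12 and 0.04. No scaled median was computed for the 1959 genes. The rule used these libraries, and there is 1 per group, so none of these shares was tested.

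LOC_Os06g39240 had the largest dose difference, with 987.6 RPKM at 80 µM after 6 h and 983.8 RPKM at 80 µM after 24 h, set against 60.7 RPKM at 20 µM after 6 h and 24.3 RPKM at 20 µM after 24 h, beside 1.0 RPKM in untreated roots. LOC_Os09g27260 had 792.4 RPKM at 80 µM after 6 h and 437.0 RPKM at 80 µM after 24 h, set against 49.3 RPKM at 20 µM after 6 h and 33.7 RPKM at 20 µM after 24 h, beside 4.8 RPKM in untreated roots. LOC_Os01g66900 had 395.5 RPKM at 80 µM after 6 h and 481.3 RPKM at 80 µM after 24 h, set against 59.7 RPKM at 20 µM after 6 h and 36.6 RPKM at 20 µM after 24 h, beside 2.0 RPKM in untreated roots. The log2 difference between 80 and 20 µM in LOC_Os06g39240, LOC_Os01g66900 and LOC_Os06g11200 was larger after 24 h (5.28, 3.68 and 4.46) than after 6 h (4.00, 2.71 and 2.31), whereas in LOC_Os09g27260 it was 3.66 after 24 h and 3.98 after 6 h.

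In the opposite direction, LOC_Os03g20330 had 30.9 RPKM at 80 µM after 6 h and 27.6 RPKM at 80 µM after 24 h, set against 104.3 RPKM at 20 µM after 6 h and 133.3 RPKM at 20 µM after 24 h, beside 5.6 RPKM in untreated roots. LOC_Os04g56560 had 52.3 RPKM at 80 µM after 6 h and 42.3 RPKM at 80 µM after 24 h, set against 118.9 RPKM at 20 µM after 6 h and 87.1 RPKM at 20 µM after 24 h, beside 2.5 RPKM in untreated roots. LOC_Os08g28710 was also lower at the higher dose, with log2 differences of -0.94 after 6 h and -1.26 after 24 h, the first of them short of 2-fold.

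**Figure D4:**
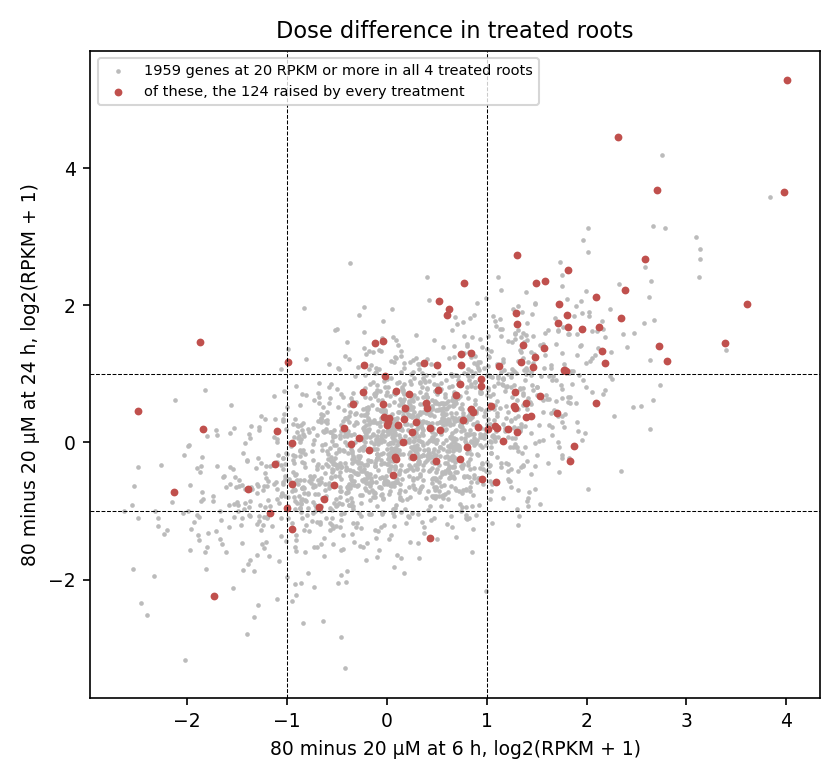
Log2(RPKM + 1) difference between 80 and 20 µM in roots after 6 h (horizontal) and after 24 h (vertical) for the 1959 genes with at least 20 RPKM in all 4 treated roots (grey), with the 124 members in red and dashed lines at 2-fold. Of the members, 82 lie above 0 on both axes, 34 of them past 2-fold on both, and 14 lie below 0 on both. The 82 and the 14 were not set beside a share of the grey genes.

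Fewer members differed by 2-fold with time than with dose. At 24 h, 79 were lower than at 6 h at both doses and 8 were higher at both, counts that likewise have no share over other genes. A decrease of at least 2-fold at both doses was found in 10 members (8.06%), beside 1.89% of the 1959 genes and 3.22% of the 13863, and a 2-fold increase in 0, beside 0.459% and 2.32%. The 10 include LOC_Os08g02030, LOC_Os01g73200 and LOC_Os03g60580. LOC_Os01g73200 had 98.3 RPKM after 24 h and 290.4 RPKM after 6 h at 20 µM, and 114.8 RPKM after 24 h and 549.9 RPKM after 6 h at 80 µM, beside 6.4 RPKM in untreated roots. The median log2 difference between 24 and 6 h was -0.52 at 20 µM and -0.37 at 80 µM over the members, and -0.07 and -0.22 over the 1959 genes.

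The top library was 80 µM after 6 h for 77 members (62.1%, beside 41.4% of the 1959 genes) and 20 µM after 6 h for 22 (beside 20.4%). For 19 it was 80 µM after 24 h (beside 20.5%) and for 6 it was 20 µM after 24 h (beside 17.7%). The 20 µM library after 24 h was the lowest of the 4 for 78 members. Without that library the rule would take in 225 genes. It would take in 147 without 20 µM after 6 h, 136 without 80 µM after 6 h and 151 without 80 µM after 24 h. The 78 were not set beside a share over other genes.

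The shoot libraries were not used by the rule. There the members made up 0.588% and 1.00% of the RPKM sum in the shoots labelled 20 and 80 µM at 6 h and 0.616% and 0.532% in those labelled 20 and 80 µM at 24 h, against 0.904% in untreated shoots. Of the 124, 17 were under 5 RPKM in all 5 shoot libraries, 2 of them listed at 0 throughout, and the other 107 could be considered. At least 2-fold higher in all 4 treated shoots were 2 members, LOC_Os01g73200 and LOC_Os03g20330, beside 0.500% of 15408 genes. At least 2-fold lower in all 4 were 4 members, LOC_Os01g50910, LOC_Os03g05700, LOC_Os05g37190 and LOC_Os08g28710, beside 1.47%. For 106 members every shoot library was below every treated root library. The rule put every treated root at 20 RPKM or more, which favours this order, and no share over other genes was computed.

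limma on log2(RPKM + 1), with the 4 treated shoots as 1 group against the untreated shoot, called 0 of the 15408 genes and 0 of the 107 members at an adjusted p under 0.05, and the smallest adjusted p was 1. At an unadjusted p under 0.05 it had 5 members, 2 higher and 3 lower, or 4.67%, beside 1.44% of all genes. This fit puts dose and time into the spread and assumes that the single untreated shoot varies like the treated ones. Without the filter on low values it called 1243 of 27600 genes, 1237 of them lower, and 4 of 122 members, or 3.28% of the members and 4.5% of all genes.

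LOC_Os01g73200 had 36.2 and 50.5 RPKM in the shoots labelled 20 and 80 µM at 6 h and 44.1 and 46.8 RPKM in those labelled 20 and 80 µM at 24 h, against 3.6 RPKM in untreated shoots. Its mean change was 3.29 ± 0.20, the treated levels lay close together, and none overlapped the untreated one (limma unadjusted p = 0.000254, adjusted p = 1). LOC_Os03g20330 had 11.7 and 8.0 RPKM in the shoots labelled 20 and 80 µM at 6 h and 15.4 and 10.7 RPKM in those labelled 20 and 80 µM at 24 h, against 1.1 RPKM in untreated shoots (mean change 2.53 ± 0.36, limma unadjusted p = 0.00323, adjusted p = 1). In each time pair LOC_Os03g20330 was again lower at 80 than at 20 µM, as it was in roots. The genes with the next largest mean shoot changes, LOC_Os08g05980, LOC_Os11g30290 and LOC_Os05g45100, each had at least 1 treated shoot within 1 RPKM of the untreated one.

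The largest difference in the other direction was that of LOC_Os01g50910. It had 1.4 and 65.0 RPKM in the shoots labelled 20 and 80 µM at 6 h and 1.9 and 1.5 RPKM in those labelled 20 and 80 µM at 24 h, against 315.9 RPKM in untreated shoots, for a mean change of -5.77 ± 2.34. In roots it had 72.9 and 71.2 RPKM at 20 and 80 µM after 6 h and 22.7 and 65.4 RPKM at 20 and 80 µM after 24 h, against 2.0 RPKM untreated. It was the highest of all members in untreated shoots, while in all 4 treatments roots stood above shoots, most narrowly at 80 µM after 6 h.

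LOC_Os03g60580 had 29.8 and 130.5 RPKM in the shoots labelled 20 and 80 µM at 6 h and 31.2 and 15.3 RPKM in those labelled 20 and 80 µM at 24 h, against 208.3 RPKM in untreated shoots. LOC_Os02g50110 had 72.0 and 44.0 RPKM in the shoots labelled 20 and 80 µM at 6 h and 47.3 and 149.2 RPKM in those labelled 20 and 80 µM at 24 h, against 151.4 RPKM in untreated shoots. LOC_Os05g49940, LOC_Os03g52390 and LOC_Os08g39730 were lower on average in treated shoots as well, with mean changes of -3.21 ± 2.96 in LOC_Os05g49940, -2.65 ± 1.28 in LOC_Os03g52390 and -2.47 in LOC_Os08g39730. LOC_Os08g39730 had 3.0 and 25.6 RPKM in the shoots labelled 20 and 80 µM at 6 h and 2.0 and 2.2 RPKM in those labelled 20 and 80 µM at 24 h, against 30.4 RPKM in untreated shoots. LOC_Os05g49940 stood at 61.5 RPKM in the shoots labelled 80 µM at 6 h, against 49.4 RPKM in untreated shoots, and at 0 in those labelled 20 µM at 6 h and 80 µM at 24 h. LOC_Os08g28710 had even values over the treated shoots, with 18.0 and 20.8 RPKM in the shoots labelled 20 and 80 µM at 6 h and 16.7 and 16.1 RPKM in those labelled 20 and 80 µM at 24 h, against 46.7 RPKM in untreated shoots (mean change -1.34 ± 0.16, limma unadjusted p = 0.0155, adjusted p = 1).

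**Figure D5:**
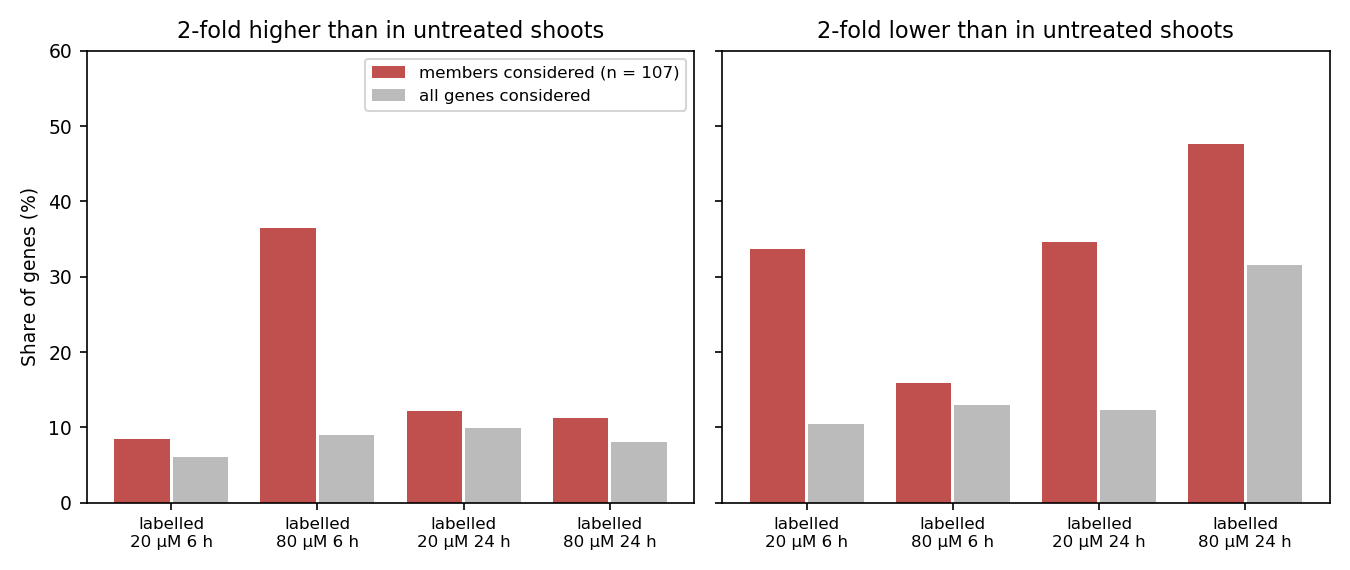
Share in percent of the 107 members considered (red) and of all 15408 genes considered (grey) that were at least 2-fold higher (left) or lower (right) on the log2(RPKM + 1) scale in each treated shoot library, as labelled, than in untreated shoots. The library labelled 80 µM at 6 h has 39 members higher and 17 lower, and the other 3 have more members lower than higher.

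The library labelled 80 µM at 6 h stood apart from the other treated shoots. There 39 members were at least 2-fold higher than in untreated shoots, beside 9.00% of all genes, and 17 were lower, beside 12.9%. In the library labelled 20 µM at 6 h, 9 were higher and 36 lower, beside 6.08% and 10.4%. In those labelled 20 and 80 µM at 24 h, 13 and 12 were higher, beside 9.98% and 8.03%, and 37 and 51 were lower, beside 12.3% and 31.6%. The members' median change was -0.55 and 0.56 in the shoots labelled 20 and 80 µM at 6 h and -0.26 and -0.92 in those labelled 20 and 80 µM at 24 h. Over all 15408 genes it was -0.05, 0, -0.04 and -0.48. The harvest-hour readout of the library labelled 80 µM at 6 h, -0.08, was close to the -0.12 of the library labelled 20 µM at 24 h, where 13 members were higher. Its part in the members' shoot levels was not tested.

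Between doses in shoots, 53 of 105 members were at least 2-fold higher in the library labelled 80 µM than in that labelled 20 µM at 6 h, beside 12.7% of 14950 genes, and 9 were lower, beside 12.1%. At 24 h, 9 were higher, beside 12.8%, and 42 were lower, beside 31.6%. At both times, 2 members were higher, LOC_Os03g05910 and LOC_Os09g20220, beside 0.776%, and 6 were lower, beside 2.14%. LOC_Os09g20220 had 10.1 RPKM in the shoots labelled 80 µM and 1.7 RPKM in those labelled 20 µM at 6 h, and 9.1 RPKM at 80 µM and 1.1 RPKM at 20 µM at 24 h, beside 6.3 RPKM in untreated shoots. Of the members in the 2 clusters, 2 of 4 reductases and 5 of 5 transferases were among the 53. LOC_Os06g11200 had 23.3 RPKM in the shoots labelled 80 µM and 0.9 RPKM in those labelled 20 µM at 6 h, beside 10.5 RPKM in untreated shoots, and LOC_Os10g38340 had 39.2 RPKM in the shoots labelled 80 µM and 2.7 RPKM in those labelled 20 µM at 6 h, beside 10.4 RPKM in untreated shoots. LOC_Os06g11240 and OPR1 (LOC_Os06g11290) were not among the 53. The counts for both clusters depend on the time labels of the 20 µM shoots. In the library labelled 20 µM at 24 h, LOC_Os10g38160 had 10.0 RPKM and LOC_Os10g38489 13.0 RPKM. In that labelled 80 µM at 6 h they had 7.0 and 25.9 RPKM. LOC_Os10g38160 was thus lower, and LOC_Os10g38489 less than 2-fold higher on the log2(RPKM + 1) scale. LOC_Os06g11240 had 9.8 and 32.6 RPKM in these libraries, more than 2-fold higher. OPR1 had 23.1 and 25.7 RPKM in the shoots labelled 20 and 80 µM at 6 h and 19.5 and 16.8 RPKM in those labelled 20 and 80 µM at 24 h, against 21.3 RPKM in untreated shoots, a mean change of -0.02 ± 0.26.

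WRKY62 (LOC_Os09g25070) reached the level of treated roots in 1 shoot library, with 184.6 and 51.9 RPKM in the shoots labelled 20 and 80 µM at 6 h and 54.4 and 33.7 RPKM in those labelled 20 and 80 µM at 24 h, against 47.3 RPKM in untreated shoots. Before treatment, 72 of the 124 members were higher in shoots than in roots, and for 28 the untreated shoot reached at least 4 times the untreated root value plus 1. The untreated root value is part of the rule, so these counts are a description.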

How the data were processed

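The 10 mRNA libraries, from oligo(dT)-selected RNA per the labels' protocols, were used, and the small RNA libraries were not. RPKM per locus are the authors' deposited values, given to 1 decimal. BWA is named in the submitters' processing notes, and the sources used here do not give its version, the genome build, the annotation or the read counting. Depth is known only in relative terms, from the ratio of low values between libraries, and RPKM hold no counts, so no counting interval was computed. The members and gene lists were chosen with earlier results of these data known.

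Changes were computed on log2(RPKM + 1), which understates the change of low genes, over genes with at least 5 RPKM in 1 or more of the libraries compared. Called genes differed by at least 2-fold in the same direction in all libraries named. For shoots, limma 3.58.1 (R 4.3.3; trended eBayes, Benjamini-Hochberg) compared 4 treated libraries with 1 untreated. The fit was tested on simulated data. Python 3.11.15, numpy 2.4.6 and pandas 2.3.3 were used. SD are over the 4 treated libraries.

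Named genes were the members with a checked symbol, the 8 largest and 3 smallest root changes, the 5 largest and 5 smallest shoot changes, the 4 largest and 4 smallest root dose differences, the 3 highest in untreated shoots, runs of 3 or more neighbours (within 10 rows), and the 3 genes on either side of each threshold. Other genes named, those of the lists and those behind counts, were chosen after their values were seen. The reference (RefSeq ASM3414082v1) lists none of the locus identifiers, so a symbol was used only where it lists that symbol on the same chromosome. No sequences are shown. Alternatives were other thresholds of the rule, pseudocounts of 0.1 and 5, no filter, median ratio scaling, exchanged 20 µM shoot labels, leaving out each library, and a fit over all 10 libraries.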

Additional observations from a re-analysis of the deposited data

Results flagged for a closer look

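In 20 of the 107 members considered in shoots, every treated shoot stood below the untreated shoot while every treated root stood above the untreated root. No share over all genes was computed for these 20, so the count is a description. In the shoots labelled 80 µM at 24 h alone, 31.6% of the 15408 genes were at least 2-fold lower. The difference between the tissues was not tested in any of the 20, and the root direction is fixed by how the genes were chosen. Of those named in the text, 4 were at least 2-fold lower in all 4 treated shoots, with mean log2 changes of -5.77 in LOC_Os01g50910, -2.25 in LOC_Os03g05700, -1.80 in LOC_Os05g37190 and -1.34 in LOC_Os08g28710. The other 5 named were lower in all 4 by less in at least 1 library, with mean changes of -2.65 in LOC_Os03g52390, -2.47 in LOC_Os08g39730, -2.45 in LOC_Os03g60580, -1.13 in LOC_Os02g50110 and -0.96 in LOC_Os08g05960.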

How the results depend on the processing

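The rule took 124 genes, and 82 with a floor of 40 RPKM, 76 at 6 times, 81 with 5 added to the untreated value, against 165 with a floor of 10 RPKM, 177 at 3 times and 131 with 0.1 added, and 136 to 225 with 1 treated root left out. With libraries scaled by median ratios it took 150, of which 116 were shared. Members 2-fold higher in all 4 treated shoots numbered 2, and 2 to 4 with 1 shoot left out, the 4 without 80 µM 24 h. Members lower in all 4 numbered 4, and 5 to 15 with 1 left out, 10 without the library labelled 20 µM 6 h and 15 without 80 µM 6 h. Root members lower at 80 µM at both times numbered 2, and 1 with a pseudocount of 5 or under scaling. Shoot members higher at 80 µM at both times numbered 2, 4 under scaling and 8 with the 20 µM labels exchanged. Without the filter on low values, limma called 1243 genes and 4 members instead of 0 and 0. The cause was not tested. The 39 members higher in the shoots labelled 80 µM at 6 h and the 53 higher at 80 than at 20 µM at 6 h are counts chosen after seeing the data, and they were 26 and 40 with a pseudocount of 5. The 53 became 51 with the 20 µM labels exchanged. Root members higher at 80 µM at both times numbered 34, and 48 under scaling. No scaled share over other genes was computed for the 48. Scaling moved the all-gene median in roots at 80 µM after 6 h to 0.12, with the members' median at 5.36. Of 252 alternative values for the mean shoot changes of 36 named members, 243 stayed within 1 SD and 9 moved by more. In 6 members 11 of these values turned sign, none of them over 0.30 in size, and those of the 36 with a 2-fold difference in all 4 treated shoots kept their sign. No paired analysis was possible because each group has 1 library. With 1 library per group, differences between libraries and between treatments cannot be told apart.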
